A study of Homo sapiens with 3 samples.

Results

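YTHDC1 is a nuclear protein that recognises N6-methyladenosine (m6A) on RNA, and its chromatin occupancy was profiled by ChIP-seq in wild-type A549, a human cell line from a lung adenocarcinoma. The 3 replicates form 1 group and were pooled by the authors before peak calling, so each peak carries a single value, no spread between replicates can be given, and sequencing depth per sample is unknown. No input or IgG library was analysed here, and the labels do not say whether the replicates were separate cultures. The peaks described here are those in exons and at the 3' ends of protein-coding genes, away from every transcript start. A peak was taken if its midpoint lay over 500 bases from all annotated starts and either inside an exon of a protein-coding gene or within 500 bases of the 3' end of its canonical transcript, the isoform that the annotation marks as representative. Of 6368 peaks in all, 311 met this rule (4.88%), which is 11.3% of the 2745 peaks over 500 bases from every start. They were split into 150 in last exons, 83 in internal exons and 77 past the end, and 1 peak, in the last 500 bases of CNFN but outside its exons, fell in none of these. Last exon means that of the canonical transcript, and past the end means beyond its 3' end. Internal exon is a short name for any other exon of any transcript. It thus includes first exons and the last or only exons of other isoforms. The 311 peaks belonged to 297 genes, of which 14 had 2 such peaks and none had more.

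As background, m6A is placed on RNA during transcription, mostly in long internal exons and in last exons near stop codons, and YTHDC1 is known to act on the marked RNA in the nucleus in splicing and export. Most messenger RNAs end by cleavage behind an AATAAA signal and addition of a poly(A) tail. The messenger RNAs of the replication-dependent histones, which are made in S phase, end instead just behind a short stem-loop and have no tail. A peak in ChIP-seq is a stretch of chromatin, so a peak over an exon or an end does not by itself show contact with the RNA.

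The sequences at the ends of genes differed in kind between histone and other genes. The first set shows 30 bases at the ends of histone genes with some of the strongest peaks, with CTTTTNAG, which covers the loop of the stem-loop and the bases next to it, in capitals (hg19, 5' to 3' on the transcript strand, H4C12 and H2BC12 for their other letter at N):
H2AC11, chr6:27101285-27101314, plus strand: caaaccaacggctCTTTTCAGggccaccca
H1-3, chr6:26234440-26234469, minus strand: attttaaacggctCTTTTCAGagccaccca
H1-2, chr6:26055968-26055997, minus strand: aaacccaaaaggctCTTTTCAGagccacca
H4C5, chr6:26205220-26205249, plus strand: caaatcaaaggccCTTTTCAGggccgccca
H2BC12, chr6:27114140-27114169, minus strand: aaccccaaaggctCTTTTAAGagccactta
H4C12, chr6:27798952-27798981, minus strand: atcaacaaaaggccCTTTTTAGggccccca

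The second set shows 30 bases around AATAAA, in capitals, at 5 gene ends with a peak past them. These are CMIP and IER2, the strongest of them that hold the signal and are no histone genes, and RPL13A, DUSP1 and ACTB as members of fixed gene lists:
CMIP, chr16:81745332-81745361, plus strand: ctttcaggcaaaAATAAActgtaagtgact
IER2, chr19:13265687-13265716, plus strand: gtcagataggaaAATAAAaaccatttgagt
RPL13A, chr19:49995533-49995562, plus strand: tttgtaatcagaAATAAAttgcttttaaag
DUSP1, chr5:172195107-172195136, minus strand: tttatacaatggAATAAAttatggcatttc
ACTB, chr7:5566787-5566816, minus strand: tgagaccagttgAATAAAagtgcacacctt

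CTTTTNAG, searched on the transcript strand only, occurred in the last 50 transcribed bases of 22 of the 23 histone genes with a peak past the end, of 0 of the 54 other peaks past the end, of 62 of all 88 histone genes (70.5%) and of 168 of all 20163 protein-coding genes (0.833%). AATAAA occurred there in 1 of the 23 histone genes, in 39 of the 54 others (72.2%, 95% interval 59.1 to 82.4) and in 63.0% of all protein-coding genes. Nearly all histone ends with a peak behind them thus held the stem-loop letters, and the other ends held AATAAA at a share whose interval includes that of all genes. Of the 7 histone genes with a last exon peak, 4 held CTTTTNAG (57.1%) and 2 held AATAAA (28.6%). At short histone genes the rule takes peaks past the end, and its part in these shares was not tested.

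The third set shows 30 bases in the 3' UTR of the last exon peaks, among the 10 strongest, that held GGACT, in capitals, a common form of the m6A consensus:
CCDC85B, chr11:65658966-65658995, plus strand: ggccgctggcatGGACTaagaaatcctgac
RRP7A, chr22:42907012-42907041, minus strand: tcaaaaaatgtgGGACTgtctctggcagtt
ANKRD13A, chr12:110477126-110477155, plus strand: tcacttaaaaagGGACTgagcattgtgtca

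The fourth set shows 120 bases at the centre of coding internal exon peaks, with exon sequence in capitals and intron sequence in lower case. METTL3 is of moderate GC, while PRSS56 is GC-rich, a contrast that returns in the composition of all these peaks:
METTL3, chr14:21969078-21969197, minus strand: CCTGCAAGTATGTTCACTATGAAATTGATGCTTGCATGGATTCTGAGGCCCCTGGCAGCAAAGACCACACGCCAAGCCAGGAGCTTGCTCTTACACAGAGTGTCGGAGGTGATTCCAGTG
PRSS56, chr2:233388732-233388851, plus strand: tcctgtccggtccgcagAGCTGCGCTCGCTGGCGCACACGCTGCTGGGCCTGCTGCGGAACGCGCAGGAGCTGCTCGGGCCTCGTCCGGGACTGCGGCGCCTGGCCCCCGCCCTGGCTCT

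Peak strength is given as the −log10 q written by the authors' caller. The 311 peaks had a median of 1.42 (95% interval 1.32 to 1.496), against 1.33 over all peaks. By class, the median was 1.17 in internal exons, 1.38 in last exons and 1.93 (1.46 to 2.53) past the end, against 1.23 for intronic peaks away from starts and 1.38 for peaks with the midpoint within 200 bases of a start. A q-value under 0.05 was reached by 177 of the 311 (56.9%, 51.4 to 62.3), against 52.1% of all 6368 peaks, a share near the background. Past the end it was reached by 57 of 77 (74.0%, 63.3 to 82.5), in last exons by 84 of 150 (56.0%, 48.0 to 63.7) and in internal exons by 35 of 83 (42.2%, 32.1 to 52.9). All intervals cover counting error over peaks of 1 pooled set only, and no test of chance was made.

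**Figure D1:**
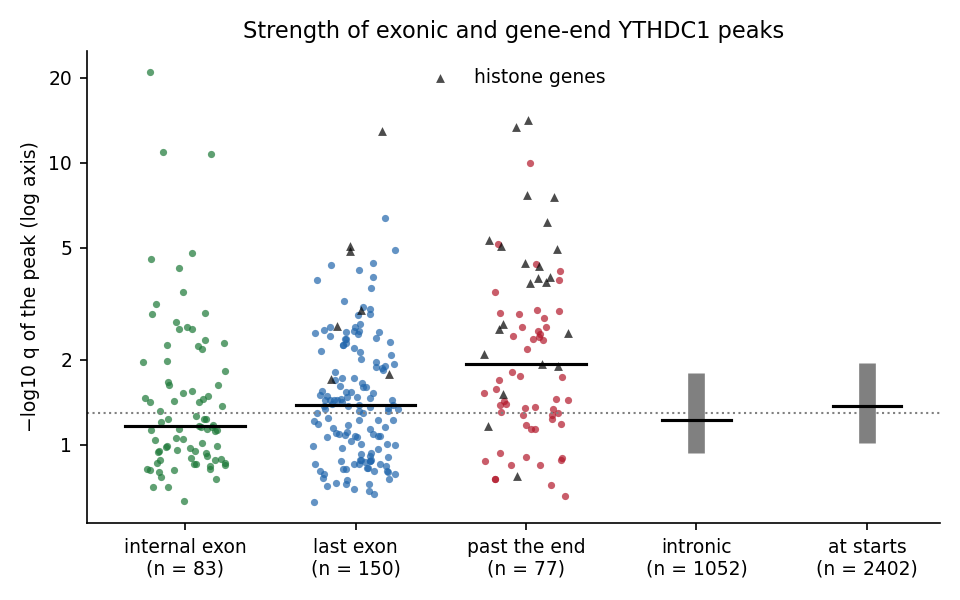
−log10 q of each peak (y axis, log scale) in internal exons, last exons and past the end (points, histone genes as black triangles, black lines the medians), beside intronic peaks away from starts and peaks with the midpoint within 200 bases of a start (grey bars from the lower to the upper quartile, black lines the medians). The dotted line is a q-value of 0.05; the median past the end, 1.93, is above those of the other classes, and most of the strongest points there are histone genes.

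The plot of strength by class shows long upper tails in all 3 classes. A −log10 q over 5 was reached by 15 of the 311 peaks (4.82%), against 163 of all 6368 peaks (2.56%). Of the 15, 9 lay past the end and 9 belonged to histone genes. Among the 281 peaks without histone genes it was 6 (2.135%), near the share of all peaks. Of the 50 strongest peaks of the whole set, 7 were exonic or gene-end peaks away from starts, as were 9 of the 20 widest, where such peaks were 4.88% of the whole set. The median width was 399 bases, against 348 for all peaks, with 596 past the end. Of the 311, 45 (14.5%) were 800 bases or wider, against 5.03% of all peaks. In all, 20 of the 311 reached into a window around a start, set out below, and 10 of these were at histone genes. These 20 had a median width of 1245 bases and a median −log10 q of 3.76, and 19 were 800 bases or wider. The other 291 had medians of 374 bases and 1.37, and 8.9% were 800 bases or wider, none over 2187 bases. Part of the excess in width and strength over all peaks thus lay in peaks that reach near a start. Over the 281 peaks without histone genes the median −log10 q was 1.35 and the share with q under 0.05 was 53.02%. Past the end, the 54 peaks without histone genes had a median −log10 q of 1.45 (1.31 to 2.19) and a median width of 420.5 bases. Of these, 36 had q under 0.05 (66.7%, 53.4 to 77.8). The last exon peaks without histone genes had a median −log10 q of 1.37 (1.22 to 1.45) and a width of 372 bases. Of these, 77 had q under 0.05 (53.85%, 45.7 to 61.8). Most of the difference between these classes in median strength and width thus went with histone genes. The shares with q under 0.05 still differed, but their intervals overlapped.

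Counted against the sequence available, the classes differed. Exons and end windows made up 3.24% of the bases over 500 bases from a start and held 11.3% of the peaks there. The density was 3.50 peaks per Mb (exact Poisson 95% interval 3.12 to 3.91), against 0.922 in introns, 0.915 in intergenic sequence and 1.00 over all sequence away from starts. It was 7.07 per Mb past the end (5.58 to 8.83), 3.95 in last exons (3.35 to 4.64) and 2.10 in internal exons (1.67 to 2.61). The intervals of the 3 classes did not overlap each other or those of introns. Without histone genes the densities were 4.98 past the end (3.74 to 6.50) and 3.77 in last exons (3.18 to 4.44), and these intervals overlapped. The GC share of the peaks also differed between the classes, as given below, and its part in the densities was not tested.

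The density by distance from the end showed where the peaks past the end sit. It was 1.05 per Mb from 3000 to 2750 bases before the end (0.287 to 2.70), 5.53 in the bin from 500 to 250 bases before it (3.55 to 8.24), 6.67 in the first 250 bases past it (4.50 to 9.52) and 10.1 from 250 to 500 bases past it (7.37 to 13.6). It was 7.74 from 750 to 1000 bases (5.29 to 10.9) and 4.64 from 2750 to 3000 bases past the end (2.70 to 7.43). Without histone gene ends the bins on both sides of 250 bases past the end held 3.78 and 7.83 per Mb. Neighbouring bins overlapped in their intervals. The rule's limit of 500 bases thus left out a zone of similar density beyond it, with 31 peaks from 500 to 750 bases past an end.

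**Figure D2:**
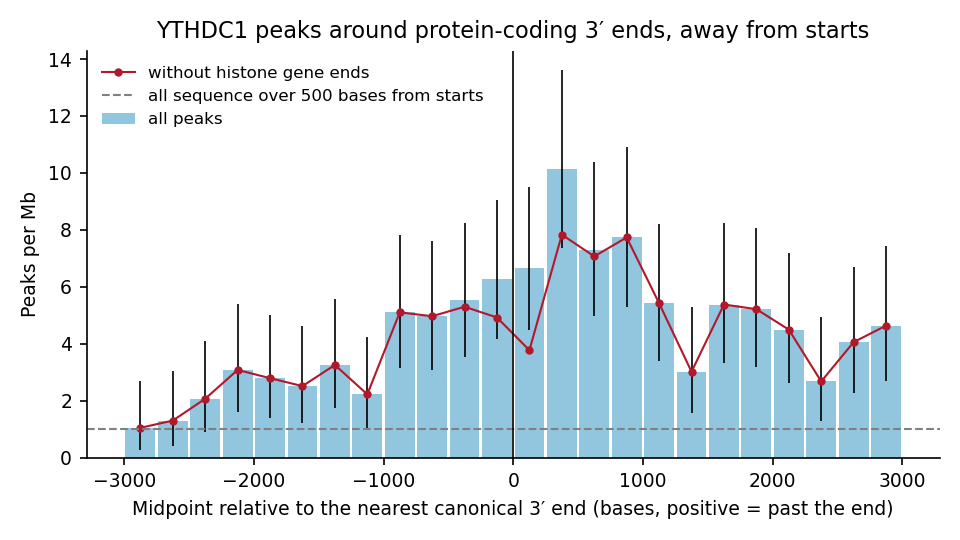
Peaks per Mb (y axis) by the distance of the midpoint from the nearest canonical 3' end of a protein-coding gene (x axis, bins of 250 bases, positive past the end), over sequence more than 500 bases from every start. Bars are all peaks with exact Poisson 95% intervals, the red line leaves out histone gene ends, and the dashed line is the mean of all such sequence, 1.00; the bars reach 10.1 at 250 to 500 bases past the end and are at 4.64 at the right edge.

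Histone genes were the largest group among the gene lists examined. Of 88 histone genes in the annotation, 30 carried an exonic or gene-end peak away from starts (34.1%, 25.0 to 44.5), against 1.47% of all protein-coding genes. Counted by type, these were 4 genes for the linker histone H1 and, for the core histones, 7 for H2A, 8 for H2B, 7 for H3 and 4 for H4. Most lay in the histone cluster of chromosome 6 (26 of 30), a chromosome on which 31 of all 218 peaks met the rule (14.2%). The median −log10 q was 3.84 and the median width 801.5 bases. The strongest were at H2AC11 (14.2, chr6:27101116-27102196), H1-3 (13.4, chr6:26233404-26235167) and H1-2 (12.97, chr6:26055272-26056669), whose stem-loops are shown above. H4C5 had 7.70, H2AC17 7.56, H2BC12 6.16, H3C12 5.34, H3C10 5.07, H3C1 5.06, H2BC10 4.94 and H2AC4 4.88. H2BC14 (0.775) and H2AC16 (1.17) were the only histone genes whose peak had a q-value above 0.05.

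The histone peaks crossed the ends of the genes. The canonical 3' end was covered by the peak in 28 of 30 histone genes, against 62 of the 311 peaks in all (19.9%) and 35 of the 77 past the end (45.45%), histone peaks included in both. Of the 30 midpoints, 23 lay past the end and 7 in the last exon, and all were between 270 bases before the end (H2AX) and 456 bases past it (H4C11). Most of these genes are short, with a median canonical length of 493.5 bases, so in a gene of that length a midpoint over 500 bases from its start lies past the end. The rule also keeps such midpoints near the end, and the median width was 801.5 bases. That most of these peaks cover the end is therefore largely set by the rule and the widths. Of the 30 peaks, 10 also reached into a window of 200 bases around a start, and 19 of the 88 histone genes had a peak at a start. H2AX, the variant phosphorylated at DNA breaks, H1-10, a linker variant, and H3-3B, for the replacement variant H3.3, were among the 30 with −log10 q of 2.65, 1.72 and 1.78. The H1-10 peak also overlapped another annotated gene, H1-10-AS1. These variants and H4C11 were named after their values were seen. Genes of the same histone type are similar in sequence. The 30 peaks had a median of 2.81% of their 31-base words elsewhere in the genome, and 6 of the 30 (20.0%) had over 10%, against 9.65% of the 311 peaks and 6.96% of all peaks. H2BC10 (20.97%) and H4C11 (20.3%) were such peaks, while H2AC11 (1.52%) and H1-3 (2.88%) were not.

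**Figure D3:**
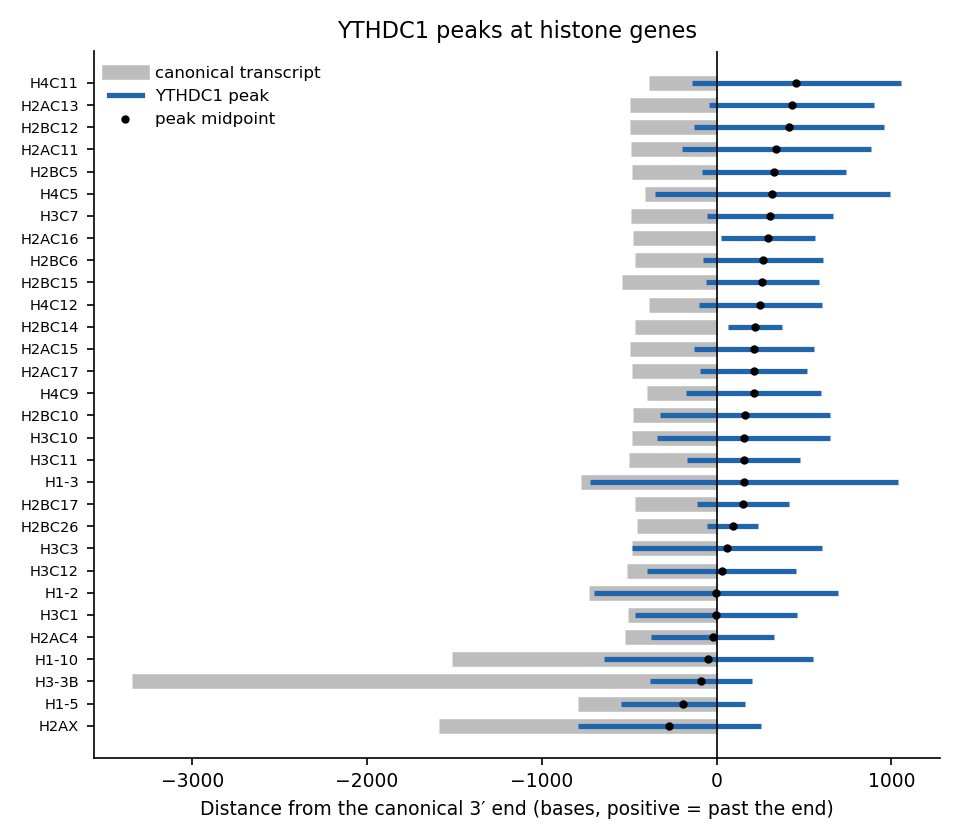
Position of the peak (blue), its midpoint (black) and the canonical transcript (grey) of the 30 histone genes, in bases from the canonical 3' end (x axis, positive past the end), ordered by midpoint. The peaks of 28 genes cross the end, and the midpoints lie between 270 bases before it and 456 bases past it.

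Past the ends of other genes, the strongest peak was assigned to GYS1, the muscle glycogen synthase (chr19:49470050-49472054, −log10 q 9.97, 2005 bases). It also overlapped FTL, the ferritin light chain gene, so the gene it belongs to cannot be told from its position. FTL had 2 further peaks, in its internal exons 2 and 3 (0.962 and 0.881). CMIP followed with 5.16 (chr16:81745684-81745950, midpoint 450 bases past the end), then IER2, an immediate early gene (4.37, chr19:13265746-13266448, 372 bases past), and the zinc finger gene ZNF48 (4.11). The peak of ID3, an inhibitor of bHLH transcription factors, was 2965 bases wide (2.94), and that of DDIT4, a stress-induced inhibitor of mTORC1, was 2187 bases wide (2.43). The tubulin gene TUBB4B (2.97, 358 bases past), the ribosomal protein gene RPL13A (2.92, 744 bases past, in a longer annotated exon) and KRT18, an epithelial keratin gene (1.81), also had peaks there. ACTB, for beta-actin, had a weaker one (0.852), 572 bases past its canonical end, and GAPDH, a glycolytic enzyme gene, had none. Over the class, the median midpoint was 304 bases past the end, 27 of 77 lay within 250 bases, and 10 lay in an exon of a longer isoform, as with ACTB and RPL13A.

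In last exons, 92 of the 150 midpoints fell in 3' UTRs and 58 in coding sequence. NEUROD2, a neuronal bHLH factor gene, had the strongest of the non-histone peaks (6.38, chr17:37761950-37762841, coding). CYP26C1, a retinoic acid-degrading P450 (4.91), PTH2, a neuropeptide gene (4.40), and APC2, a homologue of the Wnt regulator APC (3.84), were also coding and had a GC share of 65.2% to 77.7%. CCDC85B (4.33), RRP7A (4.17), a gene for an rRNA processing factor, and ANKRD13A (3.93) had their midpoint in the 3' UTR, and the GGACT sites above come from them. The RRP7A peak had 30.8% repeated 31-base words and also overlapped the pseudogene SERHL. The CCDC85B peak reached into a window of 200 bases around a start and also overlapped FOSL1, and the ANKRD13A peak also overlapped C12orf76. TEX2 and TCIM had the widest (2571 and 2538 bases, −log10 q 3.25 and 2.91), and the TEX2 peak also covered SNHG25 and SNORD104, a snoRNA host gene and a snoRNA. MYC, the growth-promoting transcription factor, had its peak in exon 3 of 3 (2.38, chr8:128754086-128754571, 868 bases before the end). Of the 150, 50 lay within 500 bases of the canonical end. The last exons with a peak had a median length of 2259 bases, between the median of all canonical last exons (1381) and the median weighted by bases (3386), which is what positions drawn evenly over these exons would meet.

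In internal exons, 47 of the 83 midpoints were coding, 21 lay in transcripts without a coding frame, 8 in 3' UTRs and 7 in 5' UTRs, and 48 lay in an exon of the canonical transcript. METTL3, the enzyme that writes m6A, had the strongest of all 311 peaks (20.9, chr14:21968740-21969536, minus strand), at rank 14 of the whole set. It spanned exons 5 and 6 of 11 with the intron between them, 68.4% of it exonic, and its nearest start was 2834 bases away. SPTBN4, an axonal beta-spectrin gene, had 10.9 in exon 16 of 36 (chr19:41025139-41025968), and MYO1C, an unconventional myosin gene, had 10.7 in an exon of a transcript with no coding frame (chr17:1372440-1372896). The remaining peaks were well below these 3. PRSS56, a serine protease gene, had 4.80, ACP4, an acid phosphatase gene, 4.56, ZFTRAF1 4.25, SNAP25, for a synaptic SNARE protein, 3.49, SLC23A2, a vitamin C transporter gene, 3.16, VMP1, an autophagy gene, 2.94, and GLG1, for a Golgi glycoprotein, 2.91. The midpoints of ZFTRAF1, SNAP25, SLC23A2 and VMP1, as that of MYO1C, lay in exons of transcripts with no coding frame. The VMP1 peak was the widest of the 311, at 3085 bases, and reached into a window of 200 bases around a start. The ACP4 peak ran from exon 9 across the 3' end of the gene.

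Splice junctions and exon length were examined because YTHDC1 is linked to splicing. Distances were taken to the junctions of the canonical transcript, so that junctions of other isoforms were not counted. Of the 83 internal exon midpoints, 22 lay within 50 bases of such a junction (26.5%, 18.2 to 36.9), against 32.0% of the bases of this class, which is inside the interval. Of the 48 in canonical exons it was 18 (37.5%, 25.2 to 51.6), against 58.1% of the bases of canonical internal exons, which is above the interval, a count added after the data were seen. The 48 canonical exons had a median length of 398.5 bases, against 123 over all canonical internal exons and 163 weighted by bases, and 12 of the 48 were first exons, which tend to be long. Of these 48 peaks, 9 spanned more than 1 exon.

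Base composition differed between the classes. The median GC share was 57.2%, against 61.2% over all peaks and 49.9% over all peaks away from starts. It was 59.5% in internal exons, 61.0% in last exons and 49.7% past the end, and the bases of these classes as a whole had 47.2%, 43.7% and 44.4%. A peak was called CpG-island-like if GC was at least 50% and the observed over expected CpG at least 0.6. This held for 125 of the 311 (40.2%, 34.9 to 45.7), against 55.8% of all peaks, 86.2% of peaks with the midpoint within 200 bases of a start and 21.5% of intronic peaks away from starts. The shares were 48.2% in internal exons, 48.0% in last exons and 15.6% past the end.

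Island-like peaks were mostly coding, with 79 of 125 midpoints in coding sequence (63.2%), against 26 of 186 of the other peaks (13.98%). Coding midpoints were island-like in 79 of 105 cases (75.2%, 66.2 to 82.5) and 3' UTR midpoints in 30 of 107 (28.0%, 20.4 to 37.2). NEUROD2, CYP26C1, SPTBN4, PRSS56, PTH2 and APC2 were coding and island-like. METTL3, CMIP, RRP7A, ANKRD13A, MYC and ACTB were not. The median −log10 q was 1.43 in island-like and 1.39 in the other peaks, and 57.6% and 56.5% had a q-value under 0.05. An annotated start lay within 1000 bases of the midpoint in 41.6% of the island-like peaks (33.3 to 50.4) and 25.8% of the others (20.1 to 32.5). The part of nearby starts in this composition was not tested.

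**Figure D4:**
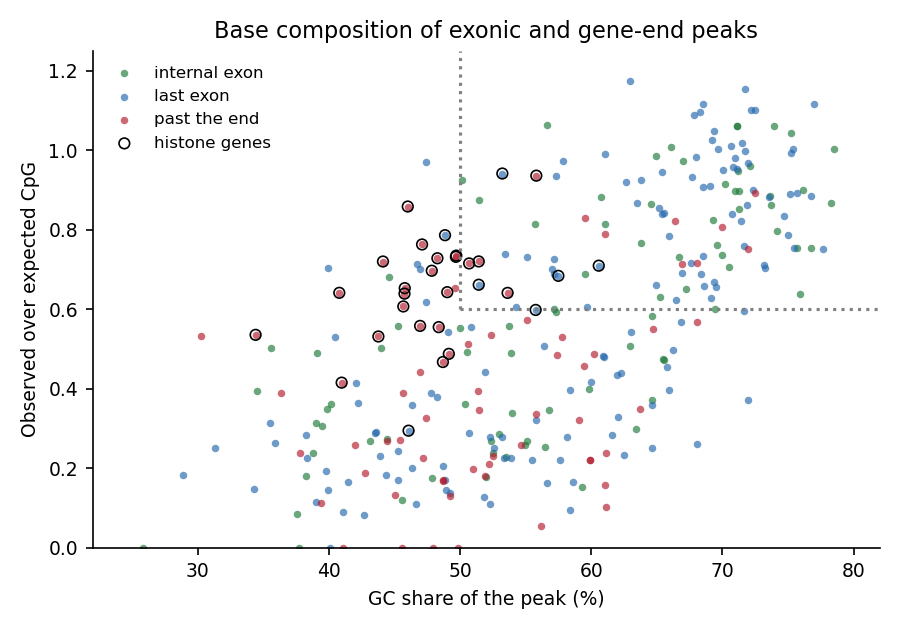
Observed over expected CpG (y axis) against the GC share in percent (x axis) of the peaks in internal exons, last exons and past the end, with histone genes circled. The dotted lines bound the CpG-island-like area at the upper right, which holds 48.2% of the internal exon, 48.0% of the last exon and 15.6% of the past-the-end peaks.

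GGACT was counted in 300 bases centred on each midpoint, a window that runs past the edges of the 94 peaks narrower than this. In 1 peak the letters lay in the window and not in the peak. On the transcript strand it was in 72 of the 311 (23.2%, 18.8 to 28.2), and its reverse complement AGTCC was in 59 (18.97%). In last exon peaks it was in 25.3% (19.1 to 32.9), against 24.4% of windows of the same length at the centres of all canonical last exons away from starts. In internal exon peaks it was in 30.1% (21.3 to 40.7), against 23.2% at all internal exon centres, which is inside the interval. Past the end it was in 10.4% (5.36 to 19.2), against 21.9% of windows 250 bases past all canonical ends. On either strand it was in 36.7% of the 311 and in 43.1% of all peaks. A match is a description of letters and not a methylated site.

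Gene lists place these peaks among known gene groups, read against the 1.47% of all protein-coding genes with such a peak. The lists were drawn up with earlier results of these data known. Replication-dependent histones had 24 of 46 genes (52.2%, 38.1 to 65.9), with a median −log10 q of 4.12. The 46 are those of 50 listed names that matched the annotation. H2BC10, H2AC15 and H2BC26, which also had such a peak, were not among them. Immediate early and AP-1 genes, which respond within minutes to growth signals, had 6 of 32 (18.8%, 8.89 to 35.3), namely IER2 (4.37), DUSP1 (2.53), MYC (2.38), JUNB (1.93), ZFP36L1 (1.35) and JUND (0.845). All of these lay in a last exon or past the end, as did 150 and 77 of the 311 peaks. For a gene with 1 exon, such as JUNB, the class rule sets this placement. The JUNB peak also covered a start and overlapped HOOK2. Cytoplasmic ribosomal proteins had 6 of 78 (7.69%, 3.57 to 15.8), led by RPL13A (2.92), RPL4 (1.62), RPLP1 (1.39) and RPL38 (1.27). Actins, tubulins and their partners had 3 of 32 (TUBB4B, TUBA1C with 1.44, and ACTB), and epithelial keratins and adhesion genes 2 of 30 (KRT81 with 2.37, and KRT18). The lower bounds of the intervals of these 5 lists lay above 1.47%, but the lists are small, and expression in A549 cells was not analysed.

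The remaining lists had few or no members. METTL3 was the only gene of 21 m6A writers, readers and erasers. EIF1, with a peak on both sides of its end (1.44 and 1.40), was the only translation factor of 24. HEXIM1, which holds P-TEFb inactive, was the only pausing and elongation gene of 30 (2.26). LIG4, a DNA ligase of end joining, was the only gene with such a peak in the list of 40 DNA damage response genes (1.81). That list is not complete, as H2AX (2.65) is not in it. FTL was the only NRF2 target of 24. Genes named ZNF had 9 of 515 (1.75%), close to the background, led by ZNF48 (4.11), ZNF180 (2.89), ZNF771 (2.13) and ZNF140 (1.60). None was found among 40 splicing factors, where the upper limit given by 3 counts is 7.50%, 20 cleavage and polyadenylation factors (15%), 23 p53 targets (13.04%), 17 lung lineage genes (17.6%), 18 glycolytic enzymes (16.7%) and 24 heat shock genes (12.5%).

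**Figure D5:**
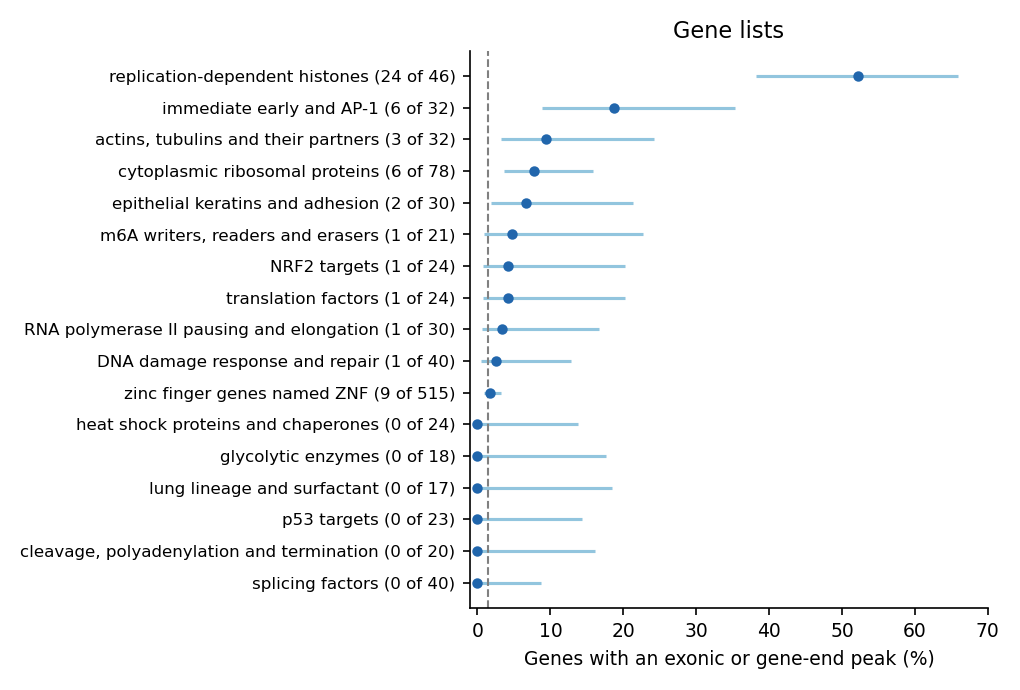
Percent of the genes of each list with an exonic or gene-end peak away from starts (x axis, points with 95% Wilson intervals), with the counts beside the names. The dashed line is the 1.47% of all protein-coding genes; replication-dependent histones are at 52.2% and immediate early and AP-1 genes at 18.8%.

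Gene structure differed between the classes. Of the 297 genes, 53 had 1 exon in the canonical transcript, and 29 of these were histone genes. Without histone genes it was 24 of 267 (8.99%, 6.12 to 13.03), against 5.41% of all other protein-coding genes. It was 0 of the 83 internal exon peaks, which the class rule largely sets, as the only exon of a canonical transcript counts as its last. With histone genes included, gene length had a median of 27041 bases over the internal exon peaks, 12408 over the last exon peaks and 5548 over those past the end, against 27219 over all genes. The histone genes, at 23 of the 77 peaks past the end, had a median of 499 bases, and the 267 other genes had 14446. A start peak was present in 63 of the 297 genes (21.2%, 16.95 to 26.2), against 15.7% of all protein-coding genes, and in 48 (16.2%, 12.4 to 20.8) when the exonic or gene-end peak itself was not counted. Another peak of the set lay within 10000 bases of 110 of the 311 (35.4%, 30.3 to 40.8), against 20.1% of all peaks, and of 30.96% without histone genes. Among the 14 genes with 2 peaks, SLC38A2, an amino acid transporter gene, had them on both sides of its end (2.302 and 2.19), as EIF1 did, and MRNIP, RRP7A and BTD had both in exons. These 5 were chosen after their values were seen. Another protein-coding gene lay under 36 of the 311 peaks (11.6%), and an annotated gene that is not protein-coding under 37 (11.9%). The assignment of such peaks to a gene is uncertain.

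The limit of 500 bases from a start cut through a continuous range. The midpoint was 501 to 72376 bases from the nearest start, with a median of 1644, and 100 peaks had a start within 1000 bases. The 26 peaks just inside the limit, at 500 to 600 bases, had a median −log10 q of 1.82, a width of 527.5 bases and 60.9% GC, and the 52 exonic and gene-end peaks just outside it, at 400 to 500 bases, had 1.76, 464 bases and 65.0%. Of these, 9 of 26 and 30 of 52 reached into a window of 200 bases around a start. Over the whole group 20 of 311 did so, and 6 of them covered a start.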

How the data were processed

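In the study's methods, formaldehyde-crosslinked A549 chromatin was sonicated, YTHDC1 ChIP-seq reads of 3 replicates were aligned to hg19 and pooled, and broad peaks were called with MACS2 at a q of 0.1 and a broad cutoff of 0.25. The methods name Bowtie2 and the submitters' processing notes BWA as the aligner, and this was not settled. The deposited value per peak was read as −log10 of the q-value written by the authors' caller, inferred from its lowest value, which lies just above −log10 of the broad cutoff (0.602). The names reach 6374, with 6 missing.

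Positions, counted from 1, were compared with GENCODE release 44 on GRCh37, of which 282 protein-coding genes had no canonical tag. Shares have 95% Wilson, densities exact Poisson and medians exact binomial intervals. The class rule was tested on simulated data. Named were the 10 strongest peaks per class, the 5 widest, genes with 2 peaks, up to 4 per list, and METTL3, MYC, ACTB and GAPDH. Members and lists were chosen with earlier results of these data known. Python 3.11.15, pysam 0.24.0, numpy 2.4.6, pandas 2.3.3, scipy 1.17.1, numba 0.67.0 and matplotlib 3.10.9 were used. Some withheld items are not reported here.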

Additional observations from a re-analysis of the deposited data

How the results depend on the processing

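No paired analysis was possible because the 3 replicates form 1 group and were pooled before calling, and for the same reason no replicate could be left out. Of 129 values under alternative settings, 102 stayed within the interval of the value reported or, for counts, within 1.5 times, including all under autosomes alone, under the stricter CpG island rule, and, added after the data were seen, without histone genes and without peaks that reach a start window. The other 27 follow. With starts at 200 bases in place of 500, 630 peaks met the rule, 334 in internal exons, with a median GC share of 64.7%, 60.6% CpG-island-like, a 4.48-fold share over the share of bases (3.50-fold as reported) and 51.5% of genes with a start peak, so these values depend on how near to starts peaks are taken. With starts at 1000 bases, 48 lay in internal exons and 49 past the end, and 34.6% were CpG-island-like. Canonical exons alone gave 48 in internal exons and a 4.07-fold share, and exons of protein-coding transcripts 3.90-fold. Peaks with q under 0.05 numbered 177, with 35 in internal and 84 in last exons, a median −log10 q of 2.26, a median width of 578 bases and a 4.01-fold share, by construction fewer and stronger. Taking peaks by an overlap of 1 base or of 100 bases in place of the midpoint also changed the start rule. Every peak with any part within 500 bases of a start was then left out. This gave 49.4% and 51.1% with q under 0.05, below the 52.1% of all peaks, where the midpoint gave 56.9%. The changes in overlap and in start rule were made together and cannot be told apart. The same settings gave median −log10 q of 1.30 and 1.31, and 12.9% and 12.3% within 50 bases of a canonical junction (8.04% by midpoint over all 311), and an overlap of 1 base gave a median width of 355 bases. GGACT was in 36.7% with the whole peak and 15.4% with 200 bases. The cause of these shifts was not tested. Without replicate values, nothing here measures variation between experiments, and weak peaks near the caller's limit cannot be weighed against it.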

Other observations

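Both ferritin genes lay next to wide peaks that the rule gave to a neighbour. The peak assigned to GYS1 (2005 bases, −log10 q 9.97) also overlapped FTL, the light chain gene, and the peak assigned to BEST1 (chr11:61730109-61731913, 1805 bases, −log10 q 2.72, in the 3' UTR of a non-canonical isoform) also overlapped FTH1, the heavy chain gene. CCND1, for the cell cycle regulator cyclin D1, had a peak 406 bases past its end (2.47), which also overlapped LTO1, and the peak of KRT81 (1613 bases, 2.37) also overlapped KRT86. These genes were chosen after their values were seen.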
